A study of Homo sapiens with 4 samples.

Results

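The genes described here are 10 that encode proteins by which neurons hold to each other and to glia. The immunoglobulin-type members are the neural cell adhesion molecules NCAM1 and NCAM2, the L1 family of L1CAM, CHL1, NRCAM and NFASC, and the contactins CNTN1 and CNTN2. ASTN1 and ASTN2 are the astrotactins. Members were chosen by gene symbol, and all 10 were among the 55765 symbols of the deposited count table. Of them 9 had enough reads to be tested, out of 18900 genes tested in all, and CHL1 did not.

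RNA was sequenced from SK-N-BE(2)C, an established human neuroblastoma line with amplified MYCN. One group had received 10 µM all-trans retinoic acid (ATRA), a vitamin A derivative that drives neuroblastoma cells towards a neuronal form, and the control group its solvent ethanol. Both were kept for 144 h, and each group had 2 libraries, replicate 1 with no number in its title and replicate 2 with the number 2. All libraries came from this 1 line, and whether 2 libraries of a group were grown apart is not stated, so the p-values below speak for library spread alone, and that spread may be technical. Total counts ran from 12850462 to 19883465 per library. In bulk RNA, fewer cells that express a gene and less RNA per cell cannot be told apart.

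Immunoglobulin-type adhesion proteins carry repeated immunoglobulin and fibronectin type III domains on the cell surface. NCAM1 and L1CAM bind copies of themselves on the next cell and guide the growth and bundling of axons, while contactins are held by a lipid anchor and act with partner proteins in the same membrane. L1 family proteins bind ankyrins through their cytoplasmic tails, which ties them to the spectrin skeleton. Astrotactins belong to another protein family. ASTN1 lets migrating neurons adhere to glial fibres, and ASTN2 regulates how much ASTN1 stands at the cell surface.

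The line expressed its defining genes. All 12 markers of adrenergic neuroblastoma had enough reads to be tested, with summed levels of 6472 and 6225 CPM (read counts scaled to the size of the library) in the ethanol libraries and 4826 and 5524 CPM in the ATRA libraries. MYCN had 2319 and 1778 CPM with ATRA against 3739 and 2910 CPM with ethanol, and GATA3, a transcription factor of the lineage, fell by 2.64 on the log2 scale (adjusted p 0.0381, edgeR quasi-likelihood). GATA3 was the 1 call among the 12, against 0.153% of all genes called lower. DESeq2 called 3 lower (2.22% of all genes) and 0 higher, and limma-voom called 0. The list had both signs, with 2 markers higher and 9 lower within both library numbers. The 2 higher were PHOX2A at log2 0.92 ± 0.33 and STMN2 at 0.77 ± 0.56, neither of them called. Of 12 markers of glia and Schwann cell precursors, 4 had 0 reads in every library, FOXD3 and OLIG2 among them. Their summed level was 57.4 and 39.7 CPM with ATRA and 36.2 and 30.1 CPM with ethanol, and 0 of the 7 tested passed. Of these, 2 were higher at an unadjusted p under 0.05, against 9.43% of all genes (edgeR quasi-likelihood). DESeq2 called 1 of the list higher, and it called 4.15% of all genes higher and 2.22% lower. Of 13 mesenchymal markers 10 were tested, and 3 rose, against 0.545% of all genes. These were FN1, the fibronectin gene, VIM, the vimentin gene, and COL3A1, a collagen gene, at log2 4.37 ± 0.38, 2.86 ± 0.34 and 6.36 ± 0.85. COL3A1 had 7 and 22 reads with ethanol and needed the ATRA libraries to pass the filter on low counts, so its call is no added support. Members had both signs, with 5 higher and 4 lower within both library numbers, and LUM, which encodes lumican, was at -2.22 ± 0.58 (adjusted p 0.145, edgeR quasi-likelihood). DESeq2 called 4 higher and 1 lower, and limma-voom 2 higher (0.228% of all genes) and 0 lower. The mesenchymal sum was 1100 and 1311 CPM with ATRA against 374 and 744 CPM with ethanol, and COL1A2 held 5 reads or fewer in each library. Markers of blood, endothelium and epithelium summed to 22.3 and 9.51 CPM with ATRA and 5.62 and 2.92 CPM with ethanol. KRT5 was at 0 reads throughout. CD14, a monocyte gene, gave 19.0 and 6.76 CPM of that sum with ATRA and 2.69 and 1.64 CPM with ethanol. It was at log2 2.58 ± 0.64 and was not called (adjusted p 0.130, edgeR quasi-likelihood). Of the 3 markers tested in this list 0 passed, and DESeq2 called 1 higher. The part of these markers in the adhesion gene values was not tested.

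The astrotactin pair gave the widest contrast among the members, so the sequence just upstream of each start is shown. Both are from RefSeq on build GRCh38.p14 and run 5′ to 3′ on the strand of the gene. The ASTN1 window is chr1:177164713-177164962 on the minus strand, and the ASTN2 window, the first of 3 listed starts, is chr9:117415058-117415307 on the minus strand. The build differs from the hg19 of the counts, so the windows were used for sequence alone.
ASTN1: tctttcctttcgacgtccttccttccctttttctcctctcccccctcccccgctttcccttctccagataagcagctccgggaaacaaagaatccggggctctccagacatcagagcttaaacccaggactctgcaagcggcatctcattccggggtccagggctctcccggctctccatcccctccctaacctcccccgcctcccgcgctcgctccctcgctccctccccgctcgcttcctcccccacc
ASTN2: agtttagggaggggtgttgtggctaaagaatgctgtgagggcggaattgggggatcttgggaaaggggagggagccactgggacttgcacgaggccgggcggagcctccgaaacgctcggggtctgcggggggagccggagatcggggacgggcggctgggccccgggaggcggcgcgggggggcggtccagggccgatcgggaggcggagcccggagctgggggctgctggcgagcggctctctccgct
The windows hold 250 bases. Both were searched on both strands for the word AGGTCA, its variant GGGTCA, the form AGTTCA, or the form GGTTCA, the core to which retinoic acid receptors bind, and held 0 of them, so no base stands in capitals. Of 35114 RefSeq windows of the same length, 33.8% held at least 1 of these words, and 0.074% held 2 in tandem with a spacer of 5 bases. Entries were found for 9 of the 10 members, and 5 of their 19 windows held a word. The ASTN1 window had 62.8% G and C and 15 CpG pairs, and the ASTN2 window 72.0% and 24, against medians of 58.0% and 11 over all windows. A word is a description of the letters and not a bound site, and its absence says nothing of sites elsewhere.

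**Figure D1:**
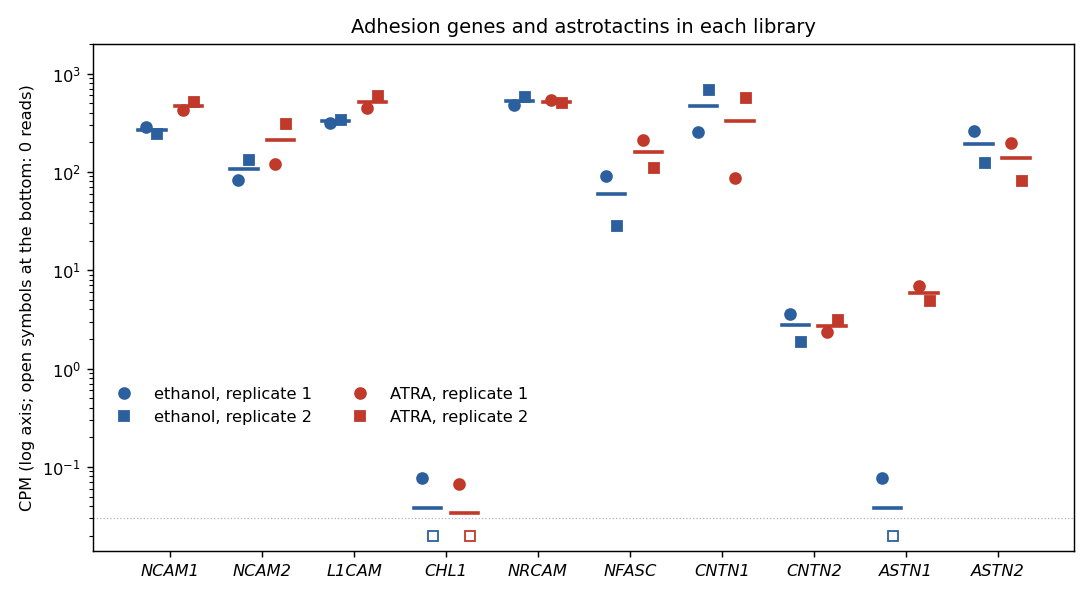
CPM of the 10 genes in each library on a log axis, with circles for replicate 1, squares for replicate 2, bars for the group mean, and open symbols at the bottom for libraries with 0 reads. ASTN1 has 4.85 and 6.98 CPM with ATRA and at most 1 read with ethanol, while CNTN1 is spread over 86.0 to 675 CPM with more distance between replicate numbers than between treatments.

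Only ASTN1 passed the test among the 9 members tested. It had 103 and 81 reads in the ATRA libraries, or 6.98 and 4.85 CPM, against 1 and 0 reads with ethanol. Both ATRA libraries stood far above both ethanol libraries. Over the groups, 184 reads faced 1, a ratio of 194 on library-scaled counts with a 95% exact counting interval of 34.4 to 7699, which covers counting error only. The fitted log2 fold change was 7.25 ± 1.00 (SE), a value that depends on the prior count because ethanol was near 0 (adjusted p 0.0493, edgeR quasi-likelihood with Benjamini-Hochberg adjustment). ASTN1 passed the filter on low counts through the ATRA libraries alone, so it had to differ once it was tested. Within the libraries of the same number the log2 difference was 5.14 and 5.33. The call lay at the edge of the threshold: it was lost with limma-voom (adjusted p 0.0638) and with library size alone as the scaling (0.0511, edgeR). It held with median-of-ratios factors (0.0461, edgeR). It also held with no filter, with DESeq2 and with the title number as a replicate block. Those settings called 4.88%, 6.36% and 21.7% of genes, against 0.698% in the main fit, so their calls are no added support. In the fits without 1 library the log2 fold change of ASTN1 was 6.126 to 9.655.

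The 1 call higher among 9 members stood against 0.545% of all genes called higher with ATRA. The 0 calls lower stood against 0.153% (0.698% in either direction). That call was ASTN1, which passed the filter on low counts through the ATRA libraries alone and had to differ once tested. ASTN1 is also part of each tally of higher members below, so it adds no support to them. By plain position, 4 members had both ATRA libraries above both ethanol libraries, namely NCAM1, L1CAM, NFASC and ASTN1, and 0 had both below. Over all genes 23.8% stood wholly above and 21.7% wholly below. Unadjusted p was under 0.05 for 3 members higher and 0 lower, against 9.43% and 6.49% of all genes, and DESeq2 and limma-voom (0.037% of all genes lower) also called 0 members lower. The median log2 fold change of the 9 was 0.67, beside 0.01 over all genes tested. ASTN1 is part of that median too and adds no support to it. Within both library numbers 5 members were higher with ATRA (38.3% of all genes were) and 2 were lower (35.3%).

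ASTN2, whose product keeps ASTN1 off the cell surface, had no matching rise. It had 196 and 80.5 CPM in the ATRA libraries and 259 and 123 CPM in the ethanol libraries. The groups overlapped, with replicate 1 the higher in each. Its log2 fold change was -0.47 ± 0.53, with a 95% interval of -1.76 to 0.82 (adjusted p 0.771, edgeR quasi-likelihood), and the differences within numbers were -0.40 and -0.61. Its direction turned without ATRA replicate 2 (0.03) and without ethanol replicate 1 (0.12). The reads of ASTN1 per read of ASTN2 were 0.0356 and 0.0602 with ATRA and 0.000297 and 0 with ethanol. TRIM32, a ubiquitin ligase gene that lies inside ASTN2 and could share reads with it, had 450 and 527 reads with ATRA and 481 and 614 with ethanol.

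Genes around ASTN1 did not rise with it to a call. Of its 3 nearest protein-coding neighbours on each side in RefSeq, 5 were in the table, and 2 had enough reads to be tested. RFWD2, the ubiquitin ligase gene now named COP1, was at log2 0.37 ± 0.23, and PAPPA2, a protease gene, at 1.29 ± 0.78. BRINP2, next to ASTN1, had 3 and 3 reads with ATRA and 0 and 0 with ethanol, too few to test. MIR488, a microRNA gene within ASTN1, had 0 reads in all libraries. The BRINP genes share the MACPF domain with the astrotactins and were looked up after the ASTN1 values were seen. BRINP3 had 13 and 63 reads with ATRA against 1 and 3 with ethanol and passed the filter on low counts through the ATRA libraries alone. It was not called (adjusted p 0.129, edgeR quasi-likelihood). BRINP1 had 1 and 8 against 10 and 14.

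**Figure D2:**
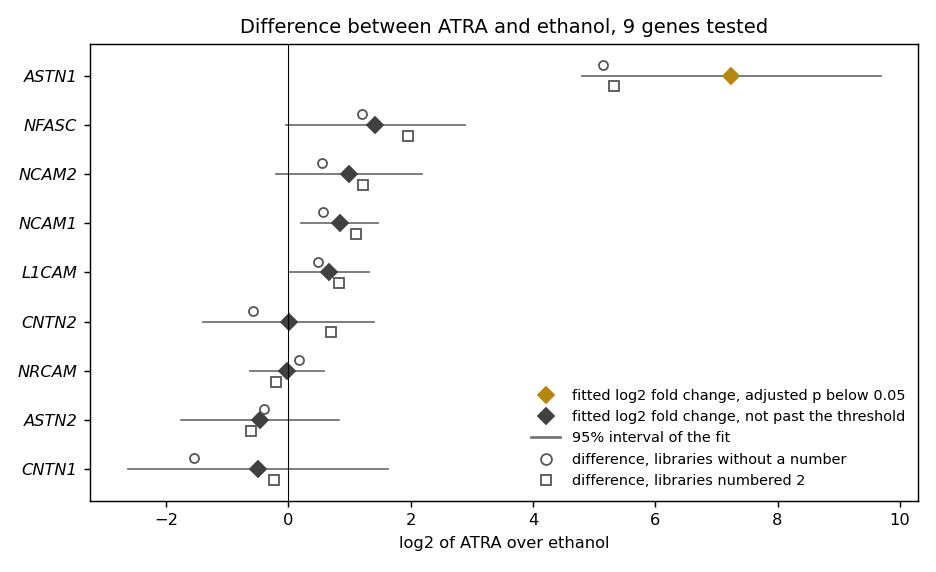
Fitted log2 fold change of ATRA over ethanol for the 9 genes tested, with its 95% interval, and the differences between libraries without a number (circles) and between libraries numbered 2 (squares). ASTN1 at 7.25 is the sole gene past the threshold, and the intervals of NCAM2, NFASC, CNTN1, CNTN2, NRCAM and ASTN2 include 0.

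NCAM1, the adhesion molecule that carries polysialic acid on immature neurons, was higher in both ATRA libraries. It had 428 and 517 CPM with ATRA and 289 and 240 CPM with ethanol. The groups did not overlap, and the log2 fold change was 0.84 ± 0.26 with a 95% interval of 0.21 to 1.46. After adjustment it missed the threshold (adjusted p 0.190 by edgeR quasi-likelihood), and the differences within numbers were 0.57 and 1.11. NCAM1-AS1, an antisense RNA at this locus, had 12 to 27 reads per library, against 3749 to 8643 for NCAM1.

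NCAM2, the relative best known from olfactory neurons, had 121 and 306 CPM with ATRA and 82.8 and 132 CPM with ethanol. The groups overlapped, since ATRA replicate 1 lay below ethanol replicate 2. The log2 fold change was 0.99 ± 0.49 (95% interval -0.20 to 2.18, adjusted p 0.398, edgeR quasi-likelihood), with 0.55 and 1.21 within numbers. Without ATRA replicate 1 it passed, at log2 1.50 and adjusted p 0.0215 (edgeR quasi-likelihood). Without ATRA replicate 2 it stood at 0.16. Fits without 1 library called 4.20% to 6.96% of all genes, so calls in them stand against a higher background. The reads of NCAM1 per read of NCAM2 were 3.54 and 1.69 with ATRA and 3.49 and 1.82 with ethanol. That ratio followed the replicate number and hardly moved with treatment.

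None of the 3 L1 family members tested passed, and whether they differ from each other was not tested. L1CAM, which supports axon growth and migration, had 444 and 595 CPM with ATRA and 317 and 336 CPM with ethanol. Both ATRA libraries were the higher, by log2 0.67 ± 0.26 with a 95% interval of 0.03 to 1.31, but missed the threshold (adjusted p 0.294 by edgeR quasi-likelihood). Within numbers the differences were 0.48 and 0.82.

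NFASC, which encodes the neurofascin isoforms of the axon initial segment and the node of Ranvier, had 209 and 110 CPM with ATRA and 91.4 and 28.2 CPM with ethanol. The groups did not overlap, though ATRA replicate 2 was close to ethanol replicate 1. The log2 fold change was 1.42 ± 0.60, with 1.20 and 1.96 within numbers, and missed the threshold (95% interval -0.05 to 2.89, adjusted p 0.329, edgeR quasi-likelihood). It passed without ATRA replicate 2 (1.81, adjusted p 0.000299) and without ethanol replicate 1 (2.46, adjusted p 0.00077, both edgeR quasi-likelihood). Without ATRA replicate 1 or ethanol replicate 2 it was at 0.89 and 0.82 and did not pass.

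NRCAM, the partner of neurofascin at nodes, had 536 and 498 CPM with ATRA and 476 and 572 CPM with ethanol. The groups overlapped fully, and the log2 fold change was -0.02 ± 0.25. Its 95% interval, -0.62 to 0.58, was the narrowest among the members. The sign turned without ATRA replicate 2 (0.02) and without ethanol replicate 2 (0.13). The reads of L1CAM per read of NRCAM were 0.829 and 1.19 with ATRA and 0.667 and 0.588 with ethanol. The ratio was thus higher in both ATRA libraries, a description with 2 values a group.

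CHL1, the close homologue of L1CAM, was next to absent. It had 1 read in replicate 1 and 0 in replicate 2 of each group. In the replicate 2 libraries 3 reads, the limit that a count of 0 allows, correspond to 0.179 CPM with ATRA and 0.149 CPM with ethanol. The limit for a count of 1 is higher. The antisense genes CHL1-AS1 and CHL1-AS2 had 0 reads throughout. No difference could be detected at this depth.

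Of the contactins, CNTN1 varied with the replicate number. CNTN1, the partner of contactin-associated proteins beside the node, had 86.0 CPM in ATRA replicate 1 and 571 in ATRA replicate 2, and 252 and 675 CPM in the ethanol libraries. Each replicate 2 library was above each replicate 1 library, and the treatments overlapped. The log2 fold change was -0.50 ± 0.87, with the widest interval among the members without an ethanol level near 0, -2.63 to 1.64 (adjusted p 0.876, edgeR quasi-likelihood). Within numbers it was -1.55 and -0.24. It passed as lower without ATRA replicate 2 (-2.45, adjusted p 9.69e-05, edgeR quasi-likelihood), and stood at 0.28 without ATRA replicate 1 and 0.40 without ethanol replicate 2.

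CNTN2, the axonal contactin also called TAG-1, had 35 and 52 reads with ATRA and 47 and 38 with ethanol, or 2.37 and 3.11 against 3.62 and 1.88 CPM. The groups overlapped. The log2 fold change was 0.00 ± 0.57 with a 95% interval of -1.39 to 1.40, so a change of over 2-fold in either direction was within reach of the error. Its sign turned under every change of scaling or filter (-0.0064 with median-of-ratios factors, -0.034 with library size alone, -0.017 with no filter), and without ATRA replicate 2 (-0.21) or ethanol replicate 2 (-0.38).

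**Figure D3:**
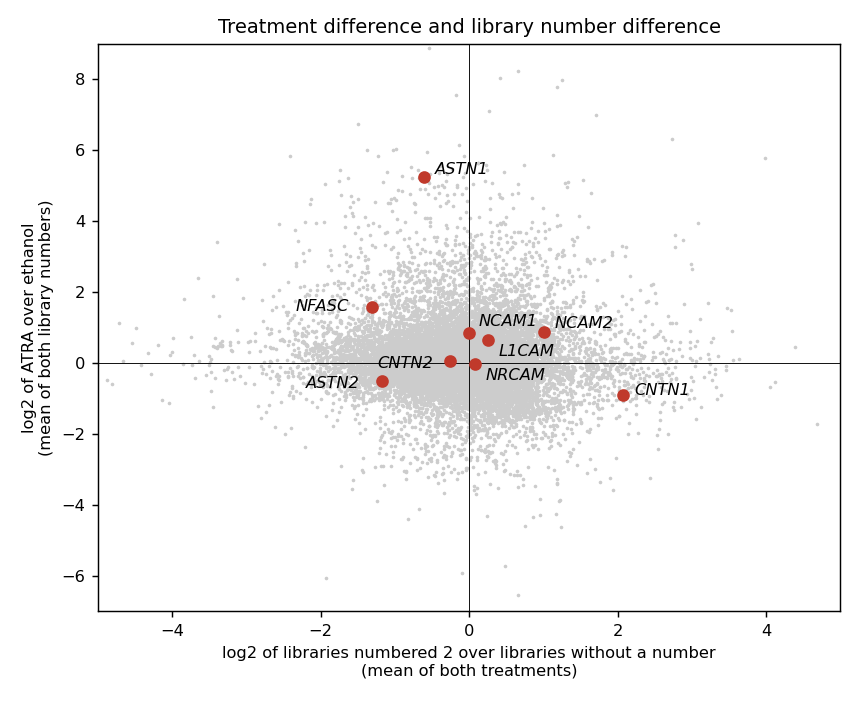
For each gene tested (grey), the mean log2 difference of libraries numbered 2 over those without a number against the mean log2 difference of ATRA over ethanol, with the 9 members in red; 11 genes lie outside the range drawn. CNTN1 lies far to the right at 2.07, NFASC and ASTN2 to the left, and ASTN1 high above the other members.

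CNTN1 and ASTN2 differed more between library numbers than between treatments, and NCAM2 by about as much. Averaged over both treatments, replicate 2 minus replicate 1 was 2.07 for CNTN1 and 1.00 for NCAM2 on the log2 scale. It was -1.31 for NFASC and -1.18 for ASTN2. The sign was the same with ATRA and with ethanol in these 4 genes. The median size over all genes was 0.42, and 97.4% of genes had a smaller one than CNTN1, 90.4% than NFASC, 88.0% than ASTN2 and 83.8% than NCAM2. NRCAM and L1CAM were steadier, with 10.7% and 31.9% of genes below them. What the number in the title stands for is unstated in the labels.

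Levels of different genes were compared per length, as CPM per kb of annotated exon. With ethanol NRCAM (63.9 ± 8.25, SD, n = 2), CNTN1 (61.9 ± 39.9) and L1CAM (45.0 ± 1.83) led. ASTN2 (23.1 ± 11.6), NCAM1 (20.8 ± 2.69) and NCAM2 (12.8 ± 4.16) came next, then NFASC (2.81 ± 2.10) and CNTN2 (0.155 ± 0.069). ASTN1 and CHL1 were last, at 0.00418 and 0.00325 CPM per kb. The libraries of NRCAM and CNTN1, of CNTN1 and L1CAM, of ASTN2 and NCAM1, and of ASTN1 and CHL1 overlapped, so those neighbours were not separated.

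With ATRA L1CAM stood first at 71.5 ± 14.6 CPM per kb (SD, n = 2), followed by NRCAM (63.1 ± 3.23), CNTN1 (43.9 ± 45.8) and NCAM1 (37.1 ± 4.92). NCAM2 (25.5 ± 15.6), ASTN2 (16.7 ± 9.83) and NFASC (7.51 ± 3.30) came after. From L1CAM down to NFASC, the libraries of each gene overlapped those of the next. ASTN1 moved above CNTN2, with 0.642 ± 0.164 against 0.154 ± 0.0294 CPM per kb, and their libraries did not overlap. ASTN1 thus remained more than an order of magnitude below ASTN2 after treatment. With the longest coding transcript as the length, CNTN1 led with ethanol and NCAM1 came second with ATRA, at 78.2 CPM per kb, NCAM1 passed ASTN2 with ethanol and ASTN2 passed NCAM2 with ATRA, while the order from NFASC down was as given.

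Of the enzymes that add polysialic acid, the sugar chain that loosens NCAM1 adhesion, ST8SIA4 was called higher and ST8SIA2 was not called. ST8SIA4 had 88.4 and 83.3 CPM with ATRA and 14.5 and 10.1 CPM with ethanol. It rose by log2 2.81 ± 0.29 (adjusted p 0.0370, edgeR quasi-likelihood), with 2.60 and 3.03 within numbers. It also passed with limma-voom (adjusted p 0.0404) and with library size alone (0.0408, edgeR). ST8SIA2, the other polysialyltransferase, named after its values were seen, had 6.64 and 7.48 CPM with ATRA and 13.7 and 13.1 CPM with ethanol. It was at -0.92 ± 0.34 (adjusted p 0.265, edgeR quasi-likelihood). Both ATRA libraries lay below both ethanol libraries, as they did for 21.7% of all genes. The reads of ST8SIA4 per read of ST8SIA2 were 13.3 and 11.1 with ATRA and 1.06 and 0.769 with ethanol. Of 12 genes of polysialic acid and glycan synthesis, 11 were tested, with a median log2 fold change of 0.07. Of these 1 rose and 0 fell, against 0.545% and 0.153% of all genes.

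Among the other contactins and contactin-associated proteins, 5 of 10 were tested. Of these 1 rose and 0 fell, against 0.545% and 0.153% of all genes. CNTNAP5, a neurexin-like relative of the contactin partners, had 24.9 and 47.5 CPM with ATRA and 3.00 and 3.22 CPM with ethanol, a rise of log2 3.53 ± 0.43 (adjusted p 0.0410, edgeR quasi-likelihood) with 3.00 and 3.83 within numbers. The median of the list was 0.02. CNTNAP5 also passed with library size alone (adjusted p 0.0457, edgeR) and was lost with limma-voom (adjusted p 0.0638).

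Of 31 extracellular partners and ligands 25 were tested, with a median of 0.85. Of these 1 rose and 0 fell, against 0.545% and 0.153% of all genes. The median includes ITGA5 (log2 3.51), ITGB3 (3.72) and LGI1 (2.33), which passed the filter on low counts through the ATRA libraries alone. It also includes FGFR2 (-3.84), which passed through the ethanol libraries alone. These genes had to differ once tested and add no support to the median. MDK encodes midkine, a heparin-binding growth factor. It had 94.3 and 115 CPM with ATRA and 14.6 and 22.4 CPM with ethanol, a rise of log2 2.50 ± 0.32 (adjusted p 0.0410, edgeR quasi-likelihood), which limma-voom did not call (0.0516). Within numbers MDK was at 2.69 and 2.35. Of 14 sheddases and other proteases that cut adhesion proteins 11 were tested, with a median of 0.50. Again 1 rose and 0 fell, against the same shares of all genes. PLAT, tissue plasminogen activator, had 848 and 475 CPM with ATRA and 39.3 and 45.5 CPM with ethanol, a rise of log2 3.96 ± 0.38 (adjusted p 0.0322, edgeR quasi-likelihood). Within numbers it was at 4.43 and 3.38. PLAT also passed with limma-voom (adjusted p 0.0319) and with library size alone (0.0342, edgeR).

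**Figure D4:**
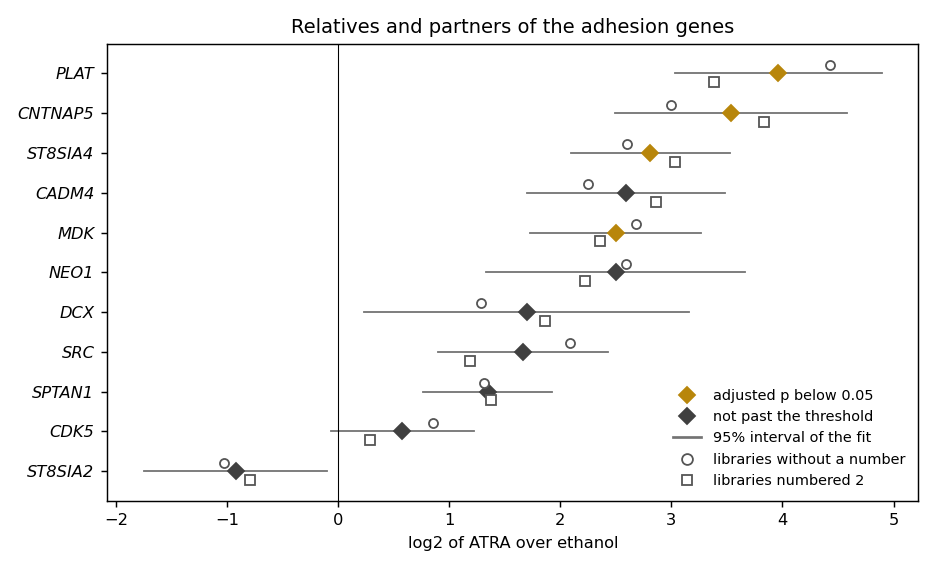
Fitted log2 fold change of ATRA over ethanol with its 95% interval for relatives and partners of the members, and the differences within libraries without a number (circles) and numbered 2 (squares). PLAT, CNTNAP5, ST8SIA4 and MDK passed the threshold between 2.50 and 3.96, and ST8SIA2 is at -0.92.

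The remaining lists gave 0 calls by edgeR quasi-likelihood and 0 by limma-voom (0.228% of all genes higher), while DESeq2, at 4.15% of all genes higher and 2.22% lower, called some members of each. Of 35 other immunoglobulin adhesion genes of neurons 26 were tested, with a median of 0.40. Unadjusted p was under 0.05 for 6 higher and 7 lower, against 9.43% and 6.49% of all genes (edgeR quasi-likelihood). Of the 7 lower, DSCAML1 had 0 and 6 reads with ATRA and 37 and 82 with ethanol. It passed the filter on low counts through the ethanol libraries alone and had to differ once tested. NEGR1, also among the 7, had 8 and 28 reads against 20 and 423 and would not have passed on the ATRA libraries alone. Neither gene adds support to the tally. DESeq2 called 4 higher and 2 lower. CADM4, a synaptic cell adhesion molecule, was at log2 2.59 ± 0.37 (adjusted p 0.0510), and NEO1, a netrin receptor, at 2.50 ± 0.48 (0.0830). CADM4 passed in each fit without 1 library, with the least firm adjusted p of 0.0056 without ethanol replicate 2, and with median-of-ratios factors (0.0487). NEO1 passed without ethanol replicate 2 (0.0230).

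Of 20 ankyrins, spectrins and other cytoplasmic partners 19 were tested, with a median of 0.49. Unadjusted p was under 0.05 for 8 higher and 2 lower, against 9.43% and 6.49% of all genes (edgeR quasi-likelihood). DESeq2 called 4 higher and 0 lower. SPTAN1, the alpha spectrin of the membrane skeleton, had 772 and 790 CPM with ATRA and 311 and 304 CPM with ethanol, at log2 1.35 ± 0.24 (adjusted p 0.0711, edgeR quasi-likelihood). The ankyrin genes, named after their values were seen, had values of both signs, with ANK1 at -0.96 ± 0.64, ANK2 at 1.05 ± 0.30 and ANK3 at 0.93 ± 0.27, and none of them passed. SRC, a kinase in L1 signalling, was at 1.66 ± 0.31. SPTAN1 passed without ATRA replicate 2 (0.0462), as did SRC (0.000296), which also passed without ethanol replicate 2 (0.0110).

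Of 16 genes of neuronal migration linked to astrotactins 15 were tested, with a median of 0.47. Unadjusted p was under 0.05 for 2 higher and 0 lower, against 9.43% and 6.49% of all genes (edgeR quasi-likelihood). DESeq2 called 2 higher and 0 lower. Among the 2 of unadjusted p under 0.05 was NTRK2, with 44 and 17 reads with ATRA and 2 and 0 with ethanol. NTRK2 passed the filter on low counts through the ATRA libraries alone and had to differ once tested, so it adds no support. DCX, a microtubule protein of migrating neurons, was at log2 1.70 ± 0.60 (adjusted p 0.246, edgeR quasi-likelihood) and CDK5 at 0.58 ± 0.26. The log2 fold change of DCX was 2.27 without ATRA replicate 1 and 2.32 without ethanol replicate 2. It was 0.67 without ATRA replicate 2 and 1.23 without ethanol replicate 1, so its size depended on the library left out. Across the 7 lists of relatives and partners, 4 of 110 genes tested rose (3.64%, beside 0.545% over all genes) and 0 fell (0.153% over all genes). Their median log2 fold change was 0.47 (0.01 over all genes). The lists were chosen with earlier results of these data known, so neither value is independent support for a response of the partners.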

How the data were processed

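Per the submitters' processing notes, the names given are STAR 2.5.2b, featureCounts 1.5.1 and the build hg19. The deposited values are raw read counts per gene symbol, 1 column per library, and 0 columns were left unmapped. The sources used here do not give annotation, strand setting or the treatment of shared reads, so reads of overlapping or antisense genes are uncertain. Per the labels' protocols, ribosomal RNA was depleted and a directional kit was used.

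Counts were fitted with edgeR 4.0.16 in R 4.3.3: filterByExpr (minimum count 10), TMM scaling, and a robust quasi-likelihood F test with treatment as the sole term (2 residual degrees of freedom). Benjamini-Hochberg adjustment covered all 18900 genes tested, two-sided, with a threshold of 0.05. SE is the size of the log2 fold change over the square root of F, and intervals use the t distribution at 95%. CPM are on TMM-scaled library sizes. Differences within numbers use log2 CPM with a prior count of 2. Lengths are unions of GENCODE 29 exons. Alternatives were other scalings, no filter, DESeq2 1.42.0, limma-voom (limma 3.58.1), each library left out, and a replicate block. Members and lists were chosen with earlier results of these data known. Besides the members, up to 3 genes past the threshold per direction were named from each list, or the 2 of smallest p, at a mean log2 CPM of at least 1.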

Additional observations from a re-analysis of the deposited data

How the results depend on the processing

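Counts of calls depended on the test. Over all genes 132 became 1821 with no filter beyond 1 count, 1269 with DESeq2, 50 with limma-voom and 870 to 1442 without 1 library. Members called higher went from 1 to 0 with library size alone or limma-voom, 2 with no filter and 1 to 2 without 1 library, and members called lower from 0 to between 0 and 1 without 1 library. Calls in the partner lists went from 4 to 27 with no filter, 22 with DESeq2, 2 with limma-voom and 13 to 29 without 1 library. Fits without a library assume that the lone sample varies like the other group, and they called 4.20% to 6.96% of genes, so added calls there are no added support.

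With the title number as a replicate block, 4098 genes (21.7%), 5 members higher (NCAM1, NCAM2, L1CAM, NFASC and ASTN1), 1 lower (ASTN2) and 54 partner genes were called. Replicate 2 minus replicate 1 correlated at 0.632 between treatments across 18900 genes, which are not independent. The labels do not say that a number marks a shared culture or day, and with 2 pairs the samples share only a number.

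The sign turned for CNTN2 with median-of-ratios factors (-0.0064), library size alone (-0.034) and no filter (-0.017). Over the fits without 1 library both signs occurred for CNTN2 (-0.38 to 0.49), CNTN1 (-2.45 to 0.40), NRCAM (-0.19 to 0.13) and ASTN2 (-1.24 to 0.12). Of 190 values of named genes under alternatives, 139 kept both direction and side of the threshold. The causes were not tested.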
